A study of Homo sapiens with 2 samples.

Results

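The genes described here are 10 transcription factors known as neural crest specifiers, namely TFAP2A, TFAP2B, SOX9, SOX10, FOXD3, PAX3, PAX7, MSX1, MSX2 and ETS1. Their messenger RNA was measured in a pair of substates of H9 cells, which are human embryonic stem cells kept as an established line. All probes of the array design whose RefSeq accession belongs to one of these genes were taken, which gave 12 of 58201 probes, with at least 1 probe for each of the 10 genes among the 22439 genes named on the array. The substate 1 array held RNA of cells at passage 35, and the substate 2 array held RNA of cells at passage 50. Both cultures grew feeder-free in TeSR-E8 medium on Matrigel, an extracellular matrix preparation, and carried no transgene, deletion or drug treatment in the labels. The study defined substate 1 by typical colonies with strong staining for the R-10G epitope and almost none for vimentin, and substate 2 by colonies with wide intercellular spaces, weaker R-10G staining and strong vimentin staining. There was 1 array per substate, so passage and substate cannot be told apart, no test between the substates was possible and no difference has a replicate check. In RNA pooled from many cells, fewer cells of a type and less RNA per cell cannot be told apart either.

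The neural crest is a population of cells that arises at the border between the neural plate and the surface ectoderm of vertebrate embryos. Its cells leave the neural tube by an epithelial-to-mesenchymal transition, migrate, and form peripheral neurons and glia, pigment cells and much of the skeleton of the face. WNT, BMP and FGF signals first set up the border, where factors such as PAX3, PAX7, MSX1, MSX2 and TFAP2A act early. FOXD3, SOX9, SOX10 and ETS1 then mark the crest proper, and several of these factors also work elsewhere, FOXD3 in pluripotent cells among them.

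In these cells 6 of the 10 genes were well above background on both arrays, and none differed by 2-fold or more between the substates. These 6 were FOXD3, SOX9, SOX10, PAX7, MSX1 and ETS1. The other 4 genes, TFAP2A, TFAP2B, PAX3 and MSX2, were not well above background on either array. The flag "well above background" comes from the scanner software and marks spots whose signal clearly exceeds the spread of the background. Of the 12 probes, 7 carried it on both arrays, 5 on neither and 0 on one array alone. Over the probes that could be named by a gene 68.5% carried it on both arrays, above the 58.3% of the member probes, and over all 58201 probes 51.3% did.

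On both arrays the cells carried the defining markers of the labelled cell type. All 8 pluripotent stem cell markers (POU5F1, NANOG, SOX2, LIN28A, DNMT3B, TDGF1, SALL4 and DPPA4) were well above background on both arrays, with differences between -0.46 and 0.42 on the log2 scale. The share of the 60901 non-control spots that carried the flag was 57.4% for substate 1 and 54.7% for substate 2. The lowest signal that carried the flag was 14.5 and 15.0 units. Negative control spots reached 7.29 and 6.59 units at most, outlier spots left out. No spot was saturated.

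The windows around the transcription starts of 7 of the members were found in RefSeq (GRCh38.p14, 250 bases before the start to 50 after it). No window was found for SOX9, SOX10 and ETS1. Of the windows found 4 are shown, because they pair members that were measured on both arrays with members that were not. FOXD3 and TFAP2A each share their start region with a noncoding gene on the opposite strand, and PAX3 and PAX7 are close paralogs. Capitals mark each CG dinucleotide, and the sequences read 5′ to 3′ on the strand of the gene. FOXD3 lies at chr1:63322317-63322616 on the plus strand, PAX7 at chr1:18630596-18630895 on the plus strand, PAX3 at chr2:222298949-222299248 on the minus strand, and the TFAP2A start nearest to its noncoding neighbour at chr6:10412342-10412641 on the minus strand.
FOXD3: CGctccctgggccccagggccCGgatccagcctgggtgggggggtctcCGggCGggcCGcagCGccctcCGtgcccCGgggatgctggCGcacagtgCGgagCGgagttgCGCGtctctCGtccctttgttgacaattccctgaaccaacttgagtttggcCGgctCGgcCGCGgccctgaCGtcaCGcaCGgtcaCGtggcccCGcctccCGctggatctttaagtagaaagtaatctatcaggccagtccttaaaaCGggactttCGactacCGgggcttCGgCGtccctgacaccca
TFAP2A: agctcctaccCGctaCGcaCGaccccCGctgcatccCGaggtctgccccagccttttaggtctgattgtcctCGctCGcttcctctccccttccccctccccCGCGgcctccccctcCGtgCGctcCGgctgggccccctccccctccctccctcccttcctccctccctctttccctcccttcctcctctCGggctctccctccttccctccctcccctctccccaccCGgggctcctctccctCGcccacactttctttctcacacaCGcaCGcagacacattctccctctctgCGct
PAX7: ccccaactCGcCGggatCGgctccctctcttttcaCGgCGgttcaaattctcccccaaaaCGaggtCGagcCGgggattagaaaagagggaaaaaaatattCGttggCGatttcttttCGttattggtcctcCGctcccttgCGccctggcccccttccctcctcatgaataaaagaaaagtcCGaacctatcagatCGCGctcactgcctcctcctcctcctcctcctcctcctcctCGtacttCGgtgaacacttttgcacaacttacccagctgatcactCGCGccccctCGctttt
PAX3: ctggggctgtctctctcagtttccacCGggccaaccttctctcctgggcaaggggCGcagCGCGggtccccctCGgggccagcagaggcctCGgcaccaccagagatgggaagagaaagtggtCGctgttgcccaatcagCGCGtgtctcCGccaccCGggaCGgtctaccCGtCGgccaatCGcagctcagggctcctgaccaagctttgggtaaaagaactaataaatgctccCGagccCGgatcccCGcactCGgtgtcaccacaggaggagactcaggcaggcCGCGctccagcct

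The FOXD3 window held 29 CG dinucleotides, a number that 24.2% of the 35116 windows in the table reach or exceed. PAX7 and PAX3 had 21 each, which 39.5% of windows reach, although the PAX7 probes were well above background and the PAX3 probes were not. TFAP2A had 18 in both of its windows. MSX1 had 31 and MSX2 had 24, whereas TFAP2B had 5, against a median of 14 over all windows. Among the 7 members with a window, the numbers of CG dinucleotides overlapped between those that were measured and those that were not. A link between this number and detection was not tested. The letters TATAAA, searched on both strands and present in 11.5% of all windows, occurred in the windows of TFAP2B and of the other TFAP2A start. The sequence GCCNNNGGC, which AP-2 factors are known to bind and which is its own reverse complement, occurred in 0 of these windows and in 23.2% of all windows. Matches and their absence describe these letters only.

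FOXD3, a forkhead factor that works in the early crest and is also known in embryonic stem cells, gave a signal of 1433 ± 143 units on the substate 1 array and 1303 ± 130 units on the substate 2 array. The error is that which the scanner software models for a single spot, as each member probe was printed once per array. Once the 75th percentile of its array had been subtracted, the log2 level was 2.19 in substate 1 and 2.24 in substate 2. The difference, substate 2 minus substate 1, was 0.05 ± 0.20 (error of both spots combined), so the substates differed by less than the spot error. The sign of this small difference depended on the scaling and turned to -0.03 in the lowest case.

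FOXD3-AS1 is a long noncoding RNA gene on the opposite strand. Its start in the table lies 109 bases from that of FOXD3, and the windows of both genes overlap by 208 bases of the sequence printed above. The 3 probes of FOXD3-AS1 were well above background on both arrays. Their differences were 0.42 ± 0.20, 0.31 ± 0.21 and 0.27 ± 0.22 on the log2 scale, all of the same sign and each inside 2-fold. The probe with the largest difference read 9917 units in substate 1 and 11620 units in substate 2.

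The SOXE factors SOX9 and SOX10 are both used in the crest, SOX9 also in cartilage and SOX10 in glia and pigment cells. SOX9 had a signal of 86.7 ± 9.33 units in substate 1 and 102 ± 10.8 units in substate 2. Its log2 difference of 0.42 ± 0.22 corresponds to 1.34-fold higher in substate 2, or 1.92 times the modelled error. SOX10 had 37.4 ± 5.28 and 34.2 ± 5.20 units, and its difference of 0.06 ± 0.30 lay inside the error. Their paralog SOX8, the remaining SOXE gene, differed by -0.09.

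Noncoding genes near SOX9 were measured as well. SOX9-AS1 had 1 probe that both arrays measured, with a difference of 0.49 ± 0.22, and 2 probes near background on both. ROCR, a noncoding gene near SOX9, had 1 probe that both arrays measured, with a difference of 0.32 ± 0.33, and 1 near background on both. None of these probes reached 2-fold.

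PAX7, a paired-box factor of the neural plate border, had the difference that was largest against its error among the measured members. Its first probe, A_33_P3291579, read 46.0 ± 5.58 units in substate 1 and 66.6 ± 7.46 units in substate 2. The log2 difference was 0.72 ± 0.24, or 1.65-fold higher in substate 2, which was 3.03 times the modelled error. Its second probe, A_23_P500985, read 21.0 ± 4.18 and 20.9 ± 4.20 units, with a difference of 0.18 ± 0.41. The probes are annotated to different transcripts of the gene, of which the table lists 3. They agreed in sign and disagreed in size, and whether they see different transcripts was not tested. The mean over both probes was 0.45.

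PAX3, the paralog of PAX7 that acts at the same border, was near background. Its first probe, A_23_P209499, read 3.21 ± 3.22 units in substate 1 and 6.58 ± 3.50 units in substate 2, and its second, A_24_P362595, read 3.73 ± 3.75 and 4.29 ± 3.75 units. All of these readings lay below the highest negative control spot of the same array, the 6.58 units by a narrow margin. The first probe had the highest Z-score of all 12, 1.82, but no fold is given for a probe that neither array measured.

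**Figure D1:**
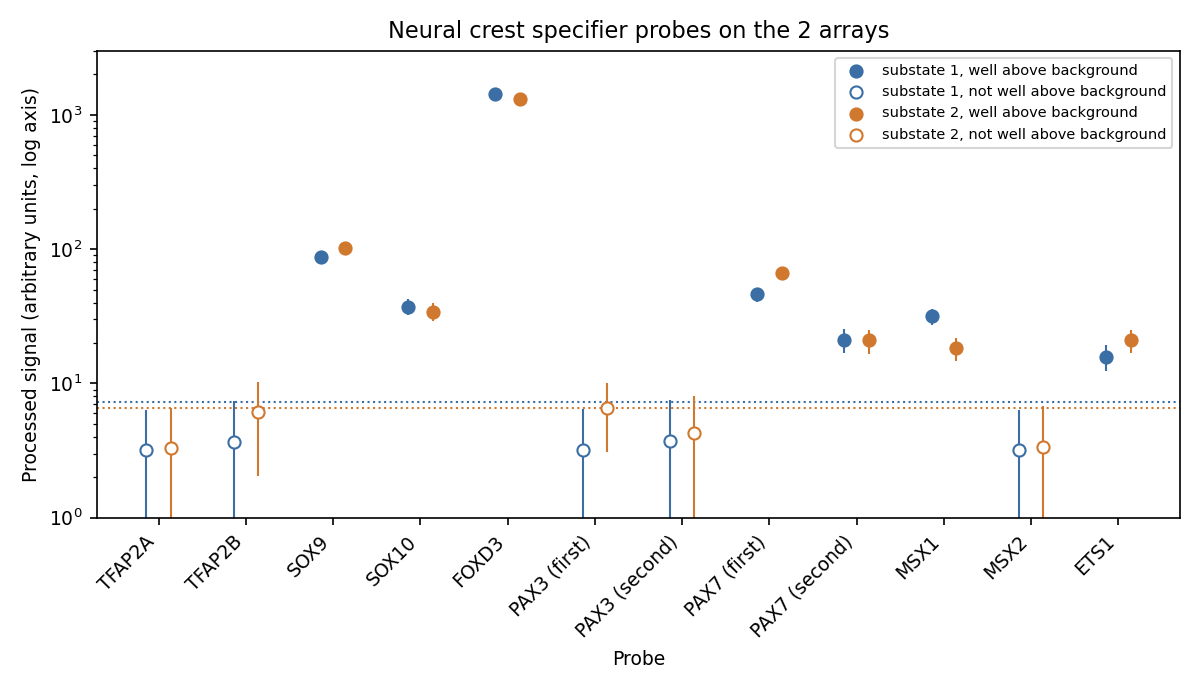
Processed signal (arbitrary units, log axis) of each of the 12 member probes on the substate 1 array (blue) and the substate 2 array (orange), with bars for the error that the scanner software models and dotted lines at the highest negative control spot of each array (bars that reach the lower edge run on below it). Filled points are well above background, which holds for 7 probes on both arrays, and the 5 open pairs, of TFAP2A, TFAP2B, PAX3 and MSX2, lie at or below the dotted lines.

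MSX1 was the only measured member with a lower level in substate 2. MSX1 and MSX2 are homeobox factors induced by BMP signals at the border. The MSX1 probe read 31.8 ± 4.33 units in substate 1 and 18.3 ± 3.62 units in substate 2. The log2 difference was -0.61 ± 0.35, or 1.52-fold lower in substate 2, which is 1.75 times the modelled error in size. With normexp background correction, another way to treat dim spots, this difference shrank to -0.07. MSX2 read 3.17 ± 3.18 and 3.39 ± 3.40 units, nearly equal to the error on each array. Signal and error were also nearly equal for TFAP2A, so these values do not give a level. MSX2P1, a transcribed pseudogene of MSX2 on chromosome 17, read 580 units in substate 1 and 476 units in substate 2, with a difference of -0.10 ± 0.20.

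ETS1, an ETS-family factor of cranial crest and of blood vessels, read 15.8 ± 3.51 units in substate 1 and 20.9 ± 3.97 units in substate 2. The substate 1 reading lay just above the lowest signal that carried the flag on that array. Its difference of 0.59 ± 0.42, or 1.51-fold higher, was 1.41 times the modelled error. The table lists 10 transcripts for ETS1 and 1 probe was matched. The probe of its antisense gene ETS1-AS1 was near background on both arrays.

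TFAP2A and TFAP2B encode AP-2 factors, of which AP-2 alpha is needed for the crest and the skin. The TFAP2A probe read 3.17 ± 3.18 units in substate 1 and 3.29 ± 3.30 units in substate 2. The raw spot was at 48.0 and 53.0 units over a local background of 38.0 and 39.0 units. The TFAP2B probe read 3.66 ± 3.68 and 6.11 ± 4.07 units. Both probes thus lay below the highest negative control spot on each array. Both probes of the noncoding gene TFAP2A-AS1, whose window overlaps the printed TFAP2A window by 26 bases on the opposite strand, were near background on both arrays as well. FOXD3 was thus well above background on both arrays together with its noncoding neighbour, and TFAP2A and its neighbour on neither. Detection did not go together in every pair, as ETS1 was well above background on both arrays and ETS1-AS1 on neither.

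Across the 7 measured probes the differences ran from -0.61 to 0.72 on the log2 scale, with 6 above and 1 below 0. Of these, 4 were larger than their modelled error and 1, that of PAX7, was larger than 2 times its error. None of the 7 was 2-fold or more higher, where 1.55% of the 33166 probes flagged on either array were, and none was 2-fold or more lower, where 1.67% were. With so few probes, a count of 0 is close to what these shares give. By the Z-score of the study, which divides the difference from the mean by the SD over all probes (0.63), 0 of the 12 probes passed 2 in either direction, and the values ran from -1.07 to 1.82. Over all probes 3.03% passed the upper limit and 3.3% the lower limit.

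**Figure D2:**
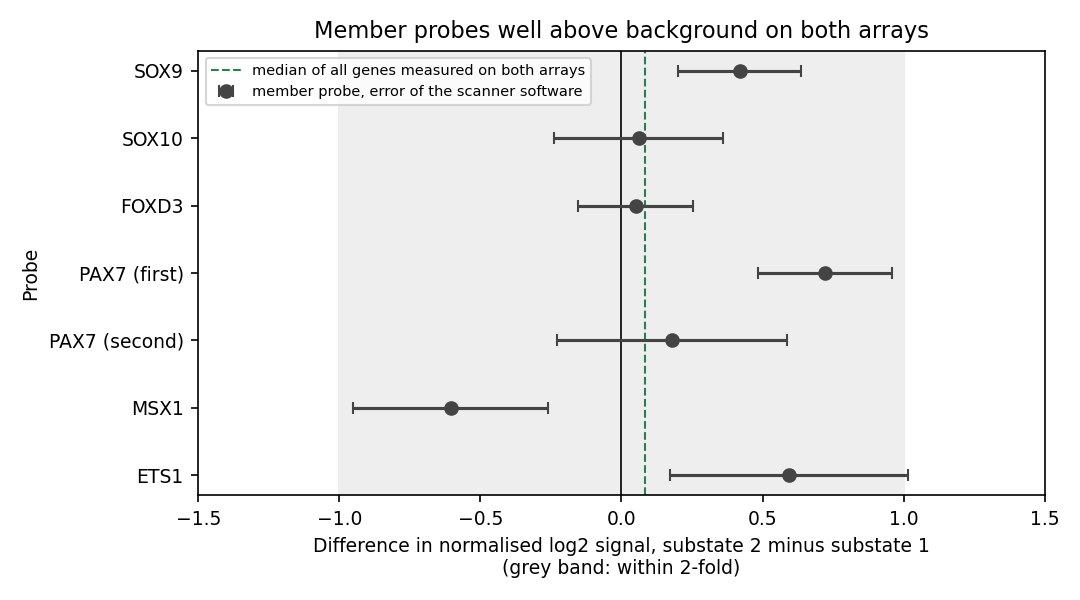
Difference in normalised log2 signal, substate 2 minus substate 1, of the 7 member probes with the flag on each array, with bars for the modelled error of both spots and a dashed line at the median of all genes (0.08). All 7 points lie inside the grey band of 2-fold, with MSX1 alone below 0 and the bar of ETS1 reaching the edge of the band.

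By gene, the median difference over the 6 measured members was 0.24, and that over all 16001 genes measured on both arrays was 0.08 with an SD of 0.38. Of the 6 genes 5 had a difference above 0, where 59.8% of all genes did, and 3 lay above the median of all genes by this measure. The middle 90% of all genes lay between -0.59 and 0.56. MSX1 (-0.61) and ETS1 (0.59) were just outside this range, and the other 4 measured members were inside it.

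The noise between spots put these values in context. Among the few non-control probes that were printed 10 times and read between 10 and 30 units, the median SD between spots was 0.30 on the log2 scale on the substate 1 array (7 probes) and 0.23 on the substate 2 array (8 probes). Above 1000 units it was 0.044 and 0.048. The difference between single spots of the levels of ETS1 or of the second PAX7 probe thus carried an SD of 0.38 from spot noise, while at the level of FOXD3 it carried 0.065. This SD was 0.28 for MSX1, 0.23 for SOX10 and for the first PAX7 probe, and 0.18 for SOX9. Neither this spread nor the modelled error covers differences between cultures, RNA preparations or labelling reactions.

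The paralogs of the members were compared next, since several can stand in for one another. Of 14 paralogs, 8 were near background on both arrays, among them PAX2, PAX5, PAX6 and FOXD1. PAX8, a paired-box factor of otic placode, thyroid and kidney, read 23.9 units in substate 1 and 128 units in substate 2, a difference of 2.61 ± 0.28. FLI1, an ETS factor of blood and endothelium, read 17.8 and 34.8 units, a difference of 1.15 ± 0.34. TFAP2C, the AP-2 factor of trophoblast, germ cells and surface ectoderm, went the other way, with 86.7 units in substate 1 and 21.0 units in substate 2, a difference of -1.85 ± 0.34. By gene, 1.77% of the 16965 genes with a probe well above background on at least 1 array had a probe 2-fold or more higher and 1.6% one 2-fold or more lower. Among the paralogs with such a probe these were 2 and 1 of 6. This list and those below were chosen with earlier results of these data known, so no excess over these shares is read from them.

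Of the 17 genes of the neural plate border list, 12 had a probe well above background. By 2-fold or more, 2 were higher and 0 lower in substate 2, where 1.77% and 1.6% of all genes were. IRX1, an Iroquois homeobox factor, read 54.3 units in substate 1 and 532 units in substate 2 (difference 3.48 ± 0.22). GBX2, a homeobox factor of the hindbrain and the border that the study chose as a candidate in part on these arrays, read 304 and 2086 units (difference 2.97 ± 0.20). The median over its 11 measured genes was 0.16. The border genes DLX3, DLX5, DLX6, PRDM1 and ZIC1 were not well above background on either array, nor were PAX3 and MSX2 above. ZIC1 read 3.07 units in substate 1 and 15.0 units in substate 2, the latter level with the lowest flagged signal of that array. DLX3 went the other way, with 11.7 and 4.17 units.

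The signals that induce the crest showed no gene past 2-fold, where 1.77% of all genes were higher and 1.6% lower. Of the 20 genes, 15 were measured on both arrays, and 13 of these were lower in substate 2, with a median of -0.13 against 0.08 for all genes. Over all genes measured on both arrays 59.8% were above 0. The ligand BMP4 differed by -0.71 and its antagonist NOG (noggin) by -0.83. BMP2 differed by -0.33, BMP7 by -0.27 and WNT3A by -0.22. WNT6 (0.54) and DLL1 (0.06) were the exceptions above 0. BMP4, NOG and WNT6 each rested on 1 dim probe. Their normalised log2 levels in substates 1 and 2 were -2.9 and -3.7, -2.7 and -3.5, and -4.3 and -3.8. For comparison, MSX1 (-3.3 and -3.9) and ETS1 (-4.3 and -3.7) carried modelled errors of 0.35 and 0.42. WNT1, WNT8A, WNT8B and FGF8 were near background on both arrays. Most of these differences were small beside the SD of 0.38 over all genes, and the list was described here without a test.

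Genes of delamination and migration, the step after specification, were mostly measured. Of the 29 genes with a probe, 27 were well above background on at least 1 array. In substate 2, 4 genes were higher by 2-fold or more and 0 were lower, where 1.77% and 1.6% of all genes were. CDH6, a cadherin of premigratory crest and of neural epithelium, read 36.8 units in substate 1 and 230 units in substate 2, a difference of 2.83 ± 0.24. EPHB3, an ephrin receptor, differed by 1.02 ± 0.23. ZEB2 was well above background on the substate 2 array alone, at least 5.39-fold higher by its brightest probe. Its other probes were at least 2.87-fold and 1.82-fold higher, the latter short of 2-fold. SOX5 passed by 1 probe that was at least 2.06-fold higher, whereas its other 2 probes, measured on both arrays, differed by -0.27 and -0.38. CDH2 (0.82), CDH11 (0.70), TWIST1 (0.52), SNAI2 (0.02), MYC (-0.40) and ROBO1 (-0.70) stayed inside 2-fold. Of the 26 genes measured on both arrays 17 were above 0 and 9 below, where 59.8% of all genes were above 0. Their median was 0.17, against 0.08 for all genes. An "at least" fold sets the bright array against the dim array's lowest signal with the flag. Where the dim probe's own signal was higher than that, the plain difference is given, which is no lower bound.

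Of 28 markers of the cells that the crest forms with a probe, 16 were well above background on at least 1 array and 12 on neither. The latter included the neuronal factors ISL1 and POU4F1 and the pigment genes TYR and MLANA. NGFR, the receptor used to sort crest cells, was measured on both arrays and differed by 0.37. The pigment genes PMEL (-0.28) and DCT (0.48), the glial receptor ERBB3 (-0.31) and the receptor KIT (-0.46) were also measured on both arrays, inside 2-fold. The measured genes had a median of -0.06, which became 0.17 with normexp correction. TYRP1, a pigment enzyme, was at least 3.04-fold higher in substate 2 by 1 probe, and its other probe was near background on both arrays. MITF, the pigment cell regulator, was at least 2.07-fold lower by 1 of its 3 probes, the other 2 being near background. Of the 8 crest cell markers, 5 were measured on both arrays, and TFAP2A, TFAP2B and PAX3 were not. The differences of these 5 ran from 0.05 to 0.45, with a median of 0.37. The summed signal of the 8, each gene by its brightest probe and before scaling, was 2022 units in substate 1 and 1984 units in substate 2, most of it from FOXD3.

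**Figure D3:**
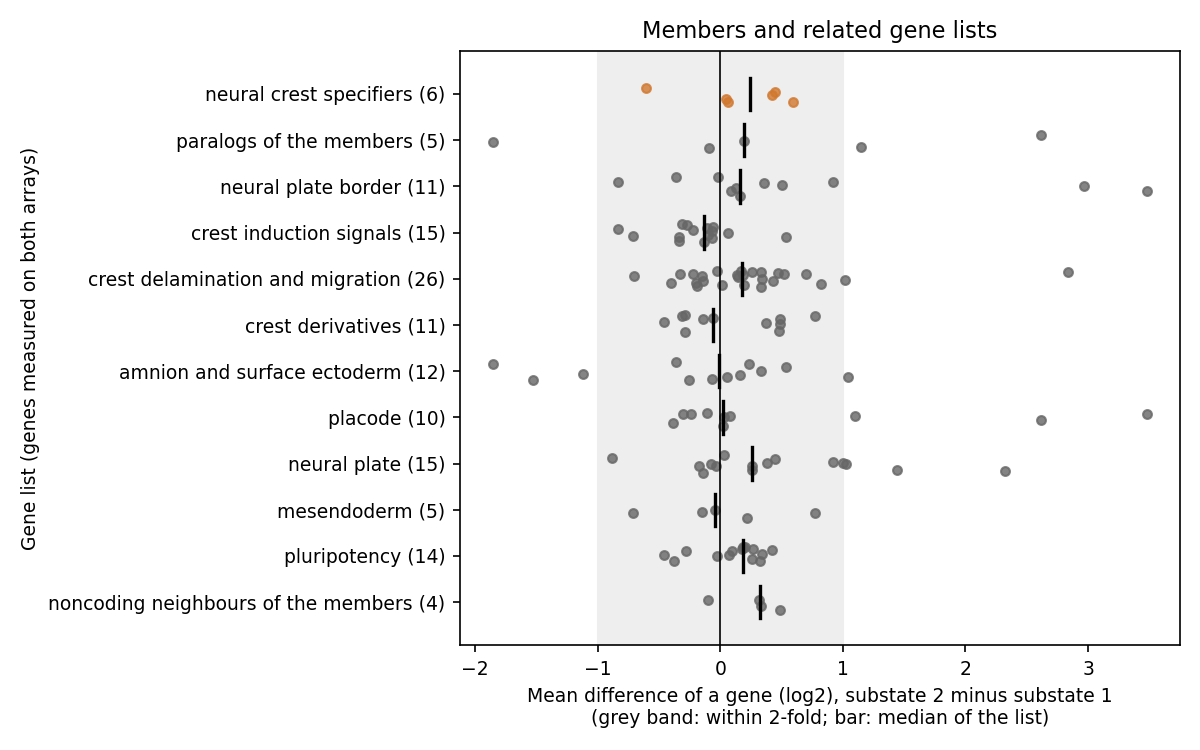
Mean log2 difference of each gene measured on both arrays, substate 2 minus substate 1, for the members (orange) and the related gene lists (grey), with the median of each list as a bar and the number of genes in brackets. The 6 members stay inside the grey band of 2-fold, while IRX1 (3.48), GBX2 (2.97), CDH6 (2.83) and PAX8 (2.61) lie far to the right and TFAP2C (-1.85) to the left, some genes being in more than 1 list.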

How the data were processed

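RNA was labelled with Cy3 and hybridised to 1-colour Agilent arrays, 1 per substate. The authors deposited scanner output, whose intensity values per spot come, per the file headers, from Feature Extraction 11.5.1.1 after subtraction of local background and detrending, along with flags and other columns. The log2 values that the authors deposited, shifted by the 75th percentile in GeneSpring GX, differed from those computed here by 1 constant per array for 100% of probes (tolerance 0.01), and had medians of -3.56 and -3.61.

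Signals under 1 would have been set to 1 (0 spots). Outlier spots (71 and 101) were dropped, log2 values were averaged by probe, and the 75th percentile (313.7 and 275.4 units) was subtracted. Through RefSeq accessions 31104 of 58201 probes (53.4%) were named. The design used hg19 and the gene table GRCh38.p14, so coordinates are given for sequences alone. The error of a difference combines the spot errors of the scanner software. Gene values are means over probes well above background on both arrays. All members were named, and in each related list (paralogs, plate border, induction signals, delamination and migration, derivatives, noncoding neighbours, amnion and surface ectoderm, placode, neural plate, mesendoderm, pluripotency) up to 5 genes per direction past 2-fold, with further examples added after their values were seen. A gene of the derivatives list is not reported here. Members and lists were chosen with earlier results of these data known. With 2 arrays no pattern across samples exists by which to name genes like a member. The number of arrays limits the precision. Steps were tested on simulated data in Python 3.11.15, with limma 3.58.1 for normexp.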

Additional observations from a re-analysis of the deposited data

How the results depend on the processing

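No paired analysis was possible because a single array stood for each substate. Over 8 alternatives the median difference of the member genes ran from 0.18 to 0.28, and the count of member probes 2-fold lower stayed 0. The count 2-fold higher became 1 with the flag for a positive and significant signal in place of well above background. That flag raised the member probes above background on at least 1 array from 7 to 10, left those on both at 7 and added both PAX3 probes and TFAP2B on the substate 2 array alone. It let in the first PAX3 probe, whose plain difference of 1.22 ± 1.64 on the log2 scale lay inside its error. Over the whole array 3109 probes were then higher in place of 514. The count past the Z-score limit became 2 when the median absolute deviation set the SD (PAX3 with 3.18 and TFAP2B with 2.37), where 17.4% of all probes passed. Both probes were near background on both arrays. Normexp correction moved the median of the crest derivatives to 0.166, and among the members it moved MSX1 by more than its error. The medians of the amnion and surface ectoderm, placode and pluripotency lists and the difference of FOXD3 changed sign under at least 1 scaling, and that of mesendoderm under normexp correction. The cause was not tested. Detection above the highest negative control spot, chosen after seeing the data, left 7 member probes. A match by a gene symbol column was not run, as the scanner files used here have no such column. Signal over background limits TFAP2A, TFAP2B, PAX3 and MSX2, for which a difference was not detectable.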

Other observations

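Among genes of the tissues next to the crest, those of the neural plate had 17 genes with a probe well above background. Of these, 5 were higher in substate 2 by 2-fold or more and 0 were lower, where 1.77% and 1.6% of all genes were. POU3F2, a neural POU factor, was well above background on the substate 2 array alone, with a plain difference of 3.73 ± 0.37. LHX2, a forebrain and eye factor, differed by 2.32 ± 0.22 and FABP7, a radial glia protein, by 1.44 ± 0.20, whereas the probes of DLK1 disagreed in size (1.69 and 0.15). MAP2, a neuronal microtubule protein, differed by 1.03 ± 0.20. The median over 15 measured genes was 0.26. Of the placode genes, EYA2 differed by 1.10 ± 0.22 beside PAX8 and IRX1 above, and EYA4 was at least 2.02-fold lower, with a median of 0.02 over 10 genes.

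Genes of amnion and surface ectoderm, where TFAP2A and TFAP2C are also used, went both ways. GABRP differed by -1.53 ± 0.21 and GRHL2, an epithelial factor, by -1.12 ± 0.21, together with TFAP2C above. Another GRHL2 probe, well above background on the substate 1 array alone, was at least 1.86-fold lower. HEY1 differed by 1.05 ± 0.21 and CGA was at least 2.12-fold higher in substate 2. Their median was -0.01 over 12 measured genes. KRT7 read 3039 units in substate 1 and 2988 units in substate 2, a difference of 0.16 ± 0.20. KRT8 (0.33), KRT18 (0.24) and KRT19 (-0.07) were also measured on both arrays. VTCN1 (-0.37) was measured by 1 probe, its other probe being near background. GATA2 was well above background on the substate 1 array alone. GATA3, TP63, ISL1 and HAND1 were near background on both arrays. In the mesendoderm list MESP1, well above background on the substate 2 array alone, had a plain difference of 1.14 ± 0.42. The median over 5 measured genes was -0.05. Of these, 2 were above 0, FOXA2 (0.77 ± 0.25) and MESP2 (0.22), where 59.8% of all genes were. The other 3 were below 0, the lowest being KDR (-0.71). MIXL1, EOMES, TBXT and SOX17 were not well above background on either array. MIXL1 and TBXT did lie above the highest negative control spot on both arrays. The pluripotency list had a median of 0.18 over 14 genes with 0 past 2-fold, where 1.77% of all genes were higher and 1.6% lower. The list of noncoding neighbours had a median of 0.32 over 4 genes. It includes MSX2P1, which lies on another chromosome than MSX2 and so is no neighbour of it.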
